A study of Mus musculus with 20 samples.

Results

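Cytochrome P450 genes were examined in the fat of mice that lost the phosphatase-binding protein α4 from their adipocytes. The members were taken by name: every gene of the deposited table whose symbol starts with Cyp and a digit, which gave 104 of 25219 genes, 99 of them protein genes and 5 non-coding. 1 further entry, a bracketed second copy of Cyp3a41a, was left out. Of the 104 genes, 28 were high enough to be tested for loss of α4 in at least 1 tissue, and the other 76 were not.

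RNA was sequenced from inguinal white adipose tissue (iWAT) and brown adipose tissue (BAT) of male mice, with 5 libraries from Control and 5 from Ai-α4KO mice in each tissue. Ai-α4KO mice carried floxed Igbp1 alleles (Igbp1 encodes α4) and the tamoxifen-inducible Adiponectin-CreERT2 transgene, whose promoter is active in adipocytes and not in the other cells of fat. The study's methods describe the Control mice as floxed animals without the transgene, while the labels call them WT, and all mice of both genotypes received tamoxifen. Tamoxifen was given from 2 months of age in 5 injections of 100 mg/kg over 6 days, and tissue was taken 1 week after recombination. The labels do not say whether the iWAT and BAT of one number came from one mouse, so p-values measure the spread between these libraries.

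P450 enzymes hold a heme group through a cysteine and use electrons from NADPH to insert an oxygen atom into fats, sterols, hormones, vitamins and foreign compounds. The microsomal members receive those electrons from P450 oxidoreductase (Por), and the mitochondrial ones, such as Cyp27a1 and Cyp11a1, from ferredoxin. Families 1 to 3 are best known for foreign compounds in liver, family 4 for fatty acids and eicosanoids, and the higher numbered families for sterols, steroids, retinoic acid and vitamin D.

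The stretch around the heme cysteine marks the family at the sequence level. In the coding sequences of GENCODE M21 (build GRCm38), 93 of 98 translatable members held the signature of phenylalanine, glycine, cysteine and glycine at its set spacing over 10 residues, and 24 of 27 tested members did. The longest coding sequence of each gene was used, and in it the tested members Cyp20a1, Cyp2b10 and Cyp2s1 had no match. Other transcripts were not searched. The 30 coding bases are printed for several members named below, not including Cyp2b10, with the cysteine codon in capitals. They show how far genes of one family differ at the site they share.
Cyp2e1: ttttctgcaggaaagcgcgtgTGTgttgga
Cyp1a1: tttggtttgggcaagcgaaagTGCatcgga
Cyp1b1: ttctcagtgggcaaacggaggTGCatcggt
Cyp2d22: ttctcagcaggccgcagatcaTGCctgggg
Cyp2u1: tttgggatagggaagcgggtgTGTatggga
Cyp27a1: ttcggctatggggttcggtctTGCctgggt
Cyp7b1: tttggactcggaacaagcaaaTGTccaggg
Cyp4f18: ttctcggctgggcccaggaacTGCatagga
Cyp4f16: ttttctgccgggcccaggaacTGCatagga
Cyp4f37: ttttctgccgggcccaggaacTGCatagga

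Cyp4f16 and Cyp4f37 are identical over these 30 bases, whereas members of different families differ at many of them. Such short stretches do not show how far reads can be placed on one gene, so sharing was measured over whole transcripts. Of 102 members with GENCODE M21 transcripts, 55 shared at least one window of 100 bases with another gene, but only 2 shared most of their windows, Cyp3a41a (90.8%) and Cyp3a41b (88.2%). These 2 genes carried the same value in every library and cannot be told apart. Among the 27 members tested for loss of α4 in either tissue that had transcripts, 9 shared any window, and none shared more than 10%. The highest was Cyp4f16 at 5.95%, almost all of it with Cyp4f37. Cyp4v3 followed at 5.77%, all with the gene model Gm45753, and Cyp1a1 shared 1.41% of its windows with Cyp1a2. No window of Cyp2b10, Cyp2f2, Cyp2u1, Cyp27a1, Cyp1b1, Cyp7b1, Cyp4f13 or Cyp4f18 was shared. Fractional counts still occurred in these genes apart from Cyp2f2, from Cyp4f18, whose count was whole in 75.0% of libraries, to Cyp1b1 and Cyp2u1 at 95.0%. How these fractions arose was not tested. Among the pairs of coding sequences compared, tested members were at most 84.3% identical, between Cyp4f16 and Cyp4f17.

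The libraries held 24023371 to 50384446 counts. Igbp1 lay between 57.5 and 76.6 CPM (read counts adjusted for library size) in the Control and 10.1 and 11.1 CPM in the Ai-α4KO libraries of iWAT, and between 85.3 and 104.9 CPM in Control BAT and 13.7 and 25.2 CPM in Ai-α4KO BAT. Markers of several cell types moved with genotype. Of 9 adipocyte markers, 7 fell in iWAT and 6 in BAT (median log2 fold change -1.63 in each), and all 7 tested macrophage markers rose in both tissues (medians 2.44 and 4.0). Of 7 brown adipocyte markers, 6 fell in iWAT and 2 in BAT (medians -2.66 and -1.08), and of 6 endothelial markers 3 fell in iWAT and 5 in BAT (medians -1.04 and -1.43). Summed, the brown adipocyte markers ran from 8343 to 12762 CPM in Control BAT against 1634 to 3628 CPM in Ai-α4KO BAT, and the endothelial markers from 745 to 1079 CPM against 285 to 372 CPM. The summed macrophage markers ran from 1090 to 1838 CPM in Control iWAT against 7127 to 9610 in Ai-α4KO iWAT, and from 219 to 491 against 4089 to 6755 CPM in BAT. In whole tissue, fewer cells of a type and less RNA per cell cannot be told apart. Some libraries stood apart within their group: Control iWAT 1 and 4 held 385 and 153.7 CPM of B cell markers against 1.21 to 10.01 CPM in the other libraries, and Control iWAT 4 and 5 held 133.7 and 71.6 CPM of hepatocyte markers against at most 23.4 CPM elsewhere. Skeletal muscle markers stood high in Control iWAT 4 (6290 CPM) and Ai-α4KO iWAT 1 (4851 CPM), and in BAT they lay between 797 and 8492 CPM in Control and between 11678 and 37738 CPM in Ai-α4KO libraries. The part of these cell types in the results below was not tested.

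Most of the family was near or below detection in fat. 19 members were listed at 0 in all 20 libraries, among them Cyp19a1 (aromatase) and Cyp11b2 (aldosterone synthase), and 12 more, including Cyp7a1, the rate-limiting enzyme of bile acid synthesis, never exceeded 3 counts. A further 45 exceeded 3 counts in some library but were tested in neither tissue. Of the 16 Cyp2c genes 1 was tested in either tissue (Cyp2c44, in iWAT), of 10 Cyp2d genes 1 (Cyp2d22), of 9 Cyp3a genes 0, of 8 Cyp4a genes 1 (Cyp4a14, in BAT), and of 10 Cyp4f genes 5.

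Of the 45 low members, 22 had their highest count in a single library, Control iWAT 4. Cyp3a11, a major liver enzyme for foreign compounds, was counted 0, 0, 1, 179 and 37 times in the 5 Control iWAT libraries and at most 2 times in Ai-α4KO iWAT. In BAT it was at 0 in every Control library and at 0, 0, 14, 9 and 22 counts in Ai-α4KO libraries. Cyp2c29, another liver gene, was counted 16 and 7 times in Control iWAT 4 and 5 and at most 1 time in any other library. Both genes were thus highest in the iWAT libraries with the highest hepatocyte markers, and whether one caused the other was not tested.

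Levels between genes are compared in FPKM, which divides the count by transcript width and library total. The number of members with a median of at least 1 FPKM was 21 in Control iWAT, 19 in Ai-α4KO iWAT, 17 in Control BAT and 17 in Ai-α4KO BAT. Summed over the 104 members, the median library held 1224 FPKM in Control iWAT, compared with 219 FPKM in Ai-α4KO iWAT. In BAT the sums were 349 FPKM in Control and 162 in Ai-α4KO. One gene made most of this difference in iWAT. Cyp2e1, which oxidises ethanol, acetone and fatty acids, took 72.1% to 83.0% of the summed FPKM in Control iWAT but 8.97% to 31.3% in Ai-α4KO iWAT. Without it the sums were 210 to 254 FPKM in Control and 186 to 202 in Ai-α4KO iWAT, ranges that did not overlap but lay close together. In BAT, Cyp2e1 took 6.34% to 31.9% of the sum in Control and 5.24% to 14.9% in Ai-α4KO libraries, and without it the sums were 227 to 336 against 122 to 168 FPKM.

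**Figure D1:**
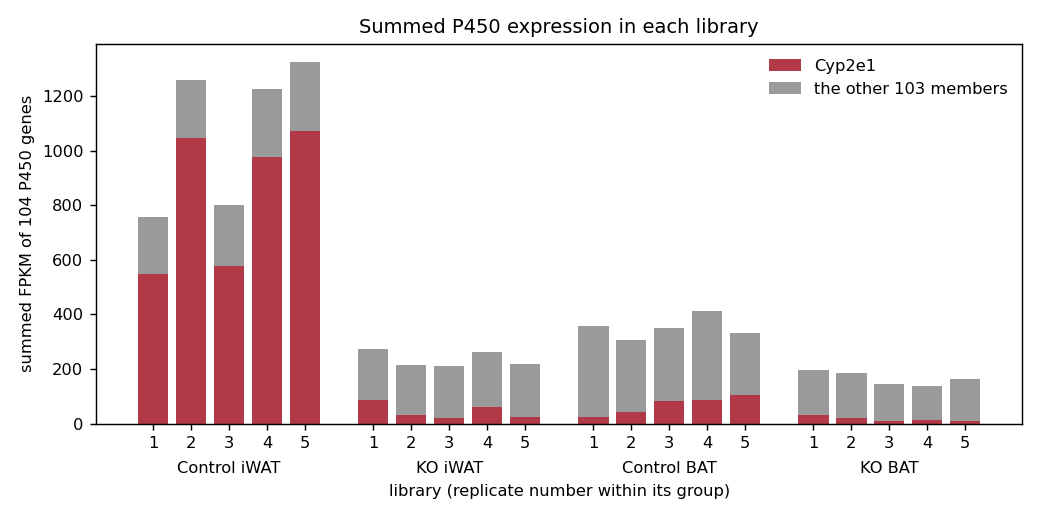
Bars give the summed FPKM of the 104 P450 genes in each of the 20 libraries, split into Cyp2e1 and the other members. Control iWAT libraries reach 758 to 1324 FPKM, mostly Cyp2e1, while the part without Cyp2e1 stays between 122 and 336 FPKM in all libraries.

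Cyp2e1 ranked 39th among all genes by median FPKM in Control iWAT, at 977 FPKM, and the next P450 there, the fatty acid hydroxylase Cyp4v3, was at 46.3 FPKM. The order was different in Control BAT, where Cyp2e1 (81.3 FPKM), Cyp27a1 (75.5 FPKM) and Cyp2b10 (64.2 FPKM) led and their ranges overlapped. In Ai-α4KO iWAT Cyp4v3 led with 32.7 FPKM (25.7 to 36.7), ahead of Cyp2e1 with 30.1 (18.9 to 84.8), and these ranges overlapped too. In Ai-α4KO BAT the leading members, Cyp4b1 (20.1 FPKM), Cyp4v3 (19.9), Cyp51 (15.99), Cyp2e1 (14.1) and Cyp27a1 (13.8), did not separate beyond their spread. Cyp4b1, another fatty acid hydroxylase, stayed among the first 6 members in every group, with group medians of 17.1 to 23.8 FPKM.

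**Figure D2:**
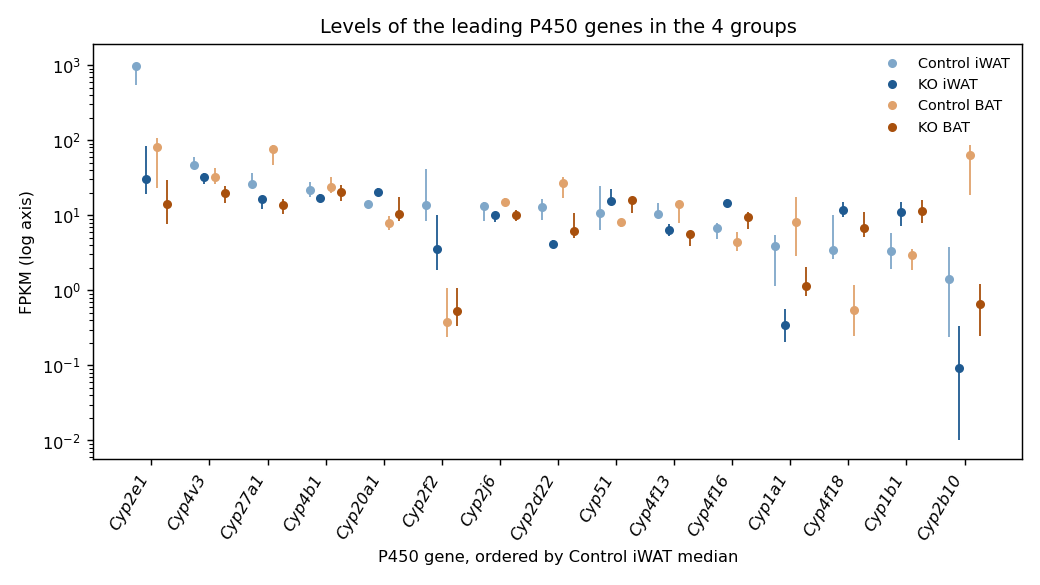
Points give the median FPKM and lines the range over 5 libraries for the 15 members that ranked among the first 10 in any group, on a log axis where a library at 0 is drawn at 0.01. Cyp2e1 in Control iWAT (977 FPKM) stands far above the other members, while the medians of Cyp4b1 stay between 17.1 and 23.8 FPKM.

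Each tissue was then tested for the loss of α4 with the quasi-likelihood test of edgeR, with p-values adjusted by Benjamini-Hochberg over all genes, and a gene was called at an adjusted p below 0.01 and a change of at least 2-fold. In iWAT, 4 of the 27 members tested rose (14.8%, against 11.3% of all genes tested) and 8 fell (29.6%, against 10.7%). In BAT, 3 of 25 rose (12.0%, against 18.2% of all genes) and 8 fell (32.0%, against 13.3%). The median log2 fold change over the tested members was -0.31 in iWAT, beside 0.01 for all genes, and -0.21 in BAT, beside -0.03. A member could pass the filter on low counts through one group alone, so these shares describe the members that passed and not the family. Of the 24 members tested in both tissues, 9 were called in both, each in the same direction: 3 rose (Cyp1b1, Cyp4f18 and Cyp7b1) and 6 fell (Cyp1a1, Cyp27a1, Cyp2b10, Cyp2d22, Cyp2e1 and Cyp2u1). Of all 13975 genes tested in both tissues, 9.49% rose in both, 7.71% fell in both and 0.0716% were called in opposite directions, so a shared direction is usual in these data. With the 5 called in one tissue this made 14.

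**Figure D3:**
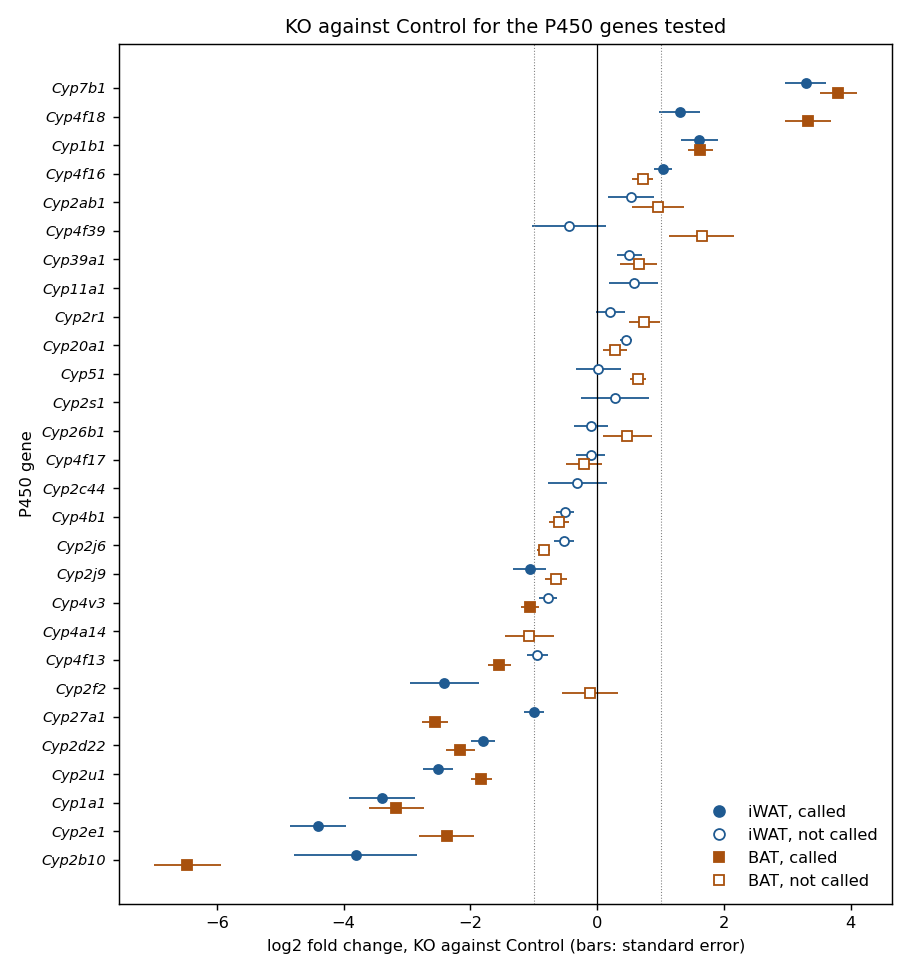
Log2 fold changes of Ai-α4KO against Control with standard errors, for the 28 members tested, in iWAT (circles) and BAT (squares); filled symbols are called and dotted lines mark a 2-fold change. Cyp2e1 (-4.40), Cyp2b10 (-3.81) and Cyp1a1 (-3.40) lie farthest to the left in iWAT, Cyp2b10 (-6.47), Cyp1a1 (-3.17) and Cyp27a1 (-2.56) in BAT, and Cyp7b1 farthest to the right in both.

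Of the 52 members of families 1 to 3 that act on foreign compounds, 8 were tested in iWAT, where 5 fell and 1 rose (median log2 fold change -2.11), and 7 in BAT, where 4 fell and 1 rose (median -2.16). Over all genes tested, 10.7% fell and 11.3% rose in iWAT, and 13.3% fell and 18.2% rose in BAT. No test of a role group was made. Cyp2e1 (chromosome 7, 140763832 to 140774977, plus strand, in the mm10 coordinates of the deposited table) was at 1008, 1973, 1246, 1829 and 2058 CPM in Control iWAT, compared with 147, 53.7, 34.1, 105 and 44.3 CPM in Ai-α4KO iWAT. Every Control library lay far above every Ai-α4KO one, and the log2 fold change was -4.40 (SE 0.443, adjusted p = 1.52e-05). In BAT it was at 50.3, 99.3, 186, 188 and 231 CPM in Control and 53.9, 35.3, 14.8, 29.2 and 17.5 CPM in Ai-α4KO libraries, a log2 fold change of -2.37 (SE 0.435, adjusted p = 0.000506). There the groups overlapped in one library each, since Ai-α4KO BAT 1 lay above Control BAT 1.

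Cyp2b10, the mouse gene used as a readout of the receptor CAR in liver, showed the largest fall in BAT. In Control BAT (chromosome 7, 25897658 to 25926624, plus strand) it was at 204, 91, 159, 184 and 44.3 CPM, and in Ai-α4KO BAT at 2.36, 1.28, 2.58, 0.547 and 1.19 CPM. The lowest Control library still lay far above the highest Ai-α4KO library, with a log2 fold change of -6.47 (SE 0.525, adjusted p = 8.11e-07). In iWAT the gene was already low in Control, with 2.79, 4.38, 8.67, 0.983 and 0.498 CPM in Control and 0.343, 0.638, 0.0525, 0.179 and 0 CPM in Ai-α4KO libraries. These groups overlapped, and the log2 fold change of -3.81 (SE 0.971, adjusted p = 0.00625) was no longer called when Control iWAT 2 or 3 or Ai-α4KO iWAT 1, 3, 4 or 5 was left out (adjusted p up to 0.0192). Nr1i3, which encodes CAR, was at most 0.0289 CPM in any library.

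Cyp2d22, a relative of the human drug-metabolising CYP2D6, fell in both tissues with no overlap between groups. It was at 25.7, 48.7, 56.3, 37.9 and 35.6 CPM in Control iWAT against 10.7 to 13.0 CPM in Ai-α4KO iWAT (log2 fold change -1.80, SE 0.188, adjusted p = 1.9e-05). In BAT it was at 64.4 to 115 CPM in Control and 16.2 to 32.1 CPM in Ai-α4KO libraries (log2 fold change -2.16, SE 0.226, adjusted p = 6.22e-06). Cyp2f2, which oxidises naphthalene in the airway, was at 16.2, 27.4, 29.9, 63.6 and 82.5 CPM in Control iWAT, compared with 6.43, 8.11, 4.59, 18.8 and 3.45 CPM in Ai-α4KO iWAT. One library of each group crossed over, and the log2 fold change was -2.41 (SE 0.543, adjusted p = 0.00303). Its highest values were those of Control iWAT 4 and 5, which also held the most hepatocyte markers, and without these 2 libraries the log2 fold change was -1.63 and the adjusted p 0.0221. Without the 2 iWAT libraries highest in muscle markers the call was also lost (-2.16, adjusted p = 0.0156). In BAT Cyp2f2 did not exceed 2.47 CPM in any library.

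Cyp1a1 and Cyp1b1, 2 known targets of the aryl hydrocarbon receptor, moved in opposite directions. Cyp1a1 was at 16.2, 16.4, 13.4, 3.47 and 3.60 CPM in Control iWAT, compared with 0.971, 1.62, 1.13, 0.591 and 0.726 CPM in Ai-α4KO iWAT. Control iWAT 4 and 5 were thus lower than the other Control libraries but still above all Ai-α4KO ones (log2 fold change -3.40, SE 0.522, adjusted p = 0.000247). In BAT Cyp1a1 was at 29.2, 65.7, 33.1, 24.2 and 10.1 CPM in Control and at 3.41, 3.32, 6.31, 2.80 and 2.53 CPM in Ai-α4KO libraries (log2 fold change -3.17, SE 0.435, adjusted p = 5.45e-05). Cyp1b1, which oxidises steroids and arachidonic acid and is expressed outside the liver, rose instead. It was at 31.1, 21.2, 21.4, 10.7 and 11.9 CPM in Control iWAT, compared with 77.2, 57.3, 66.1, 56.4 and 38.1 CPM in Ai-α4KO iWAT, groups that did not overlap (log2 fold change 1.61, SE 0.293, adjusted p = 0.000778). In BAT its log2 fold change was 1.63 (SE 0.2, adjusted p = 2.23e-05), from 12.1 to 24.1 CPM in Control to 47.4 to 85.0 CPM in Ai-α4KO libraries.

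The 250 bases upstream of the start of both genes are shown because the 2 genes share a regulator and moved apart. They come from RefSeq (GRCm38.p6), lie at chr9:57697363-57697612 on the plus strand and chr17:79715062-79715311 on the minus strand, and are read in the direction of the gene with the receptor's short core motif GCGTG, or its reverse complement CACGC, in capitals.
Cyp1a1: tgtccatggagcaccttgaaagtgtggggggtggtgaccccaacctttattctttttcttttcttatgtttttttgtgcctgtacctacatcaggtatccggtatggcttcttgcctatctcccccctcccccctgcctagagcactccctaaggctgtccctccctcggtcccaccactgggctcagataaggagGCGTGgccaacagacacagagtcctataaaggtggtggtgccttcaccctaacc
Cyp1b1: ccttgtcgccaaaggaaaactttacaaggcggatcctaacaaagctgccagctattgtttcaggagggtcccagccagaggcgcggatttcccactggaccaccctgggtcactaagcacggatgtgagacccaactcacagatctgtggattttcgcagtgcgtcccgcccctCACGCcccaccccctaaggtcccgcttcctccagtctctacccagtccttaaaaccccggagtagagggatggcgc

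Each window held 1 copy of the core. Searched on both strands, GCGTG occurred in 10 of the 22 upstream windows available for tested members (45.5%) and in 28.2% of all 32851 windows of this length. The longer form TNGCGTG, which contains the short core, was in 0 of the 22 promoters of tested members when the 50 bases after the start were included, and in 5.07% of all promoters. Bases farther upstream than 250 were not searched, so sites there could not be seen. The 22 windows include both starts of Cyp11a1. Among the genes of the receptor pathway, Ahrr, which encodes its repressor, rose in both tissues (1.54 in iWAT at an adjusted p of 0.0015 and 2.15 in BAT at 0.000779, log2 scale), and Ahr itself rose in iWAT (1.0, adjusted p = 0.00183) and was at 0.07 in BAT (adjusted p = 0.797).

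**Figure D4:**
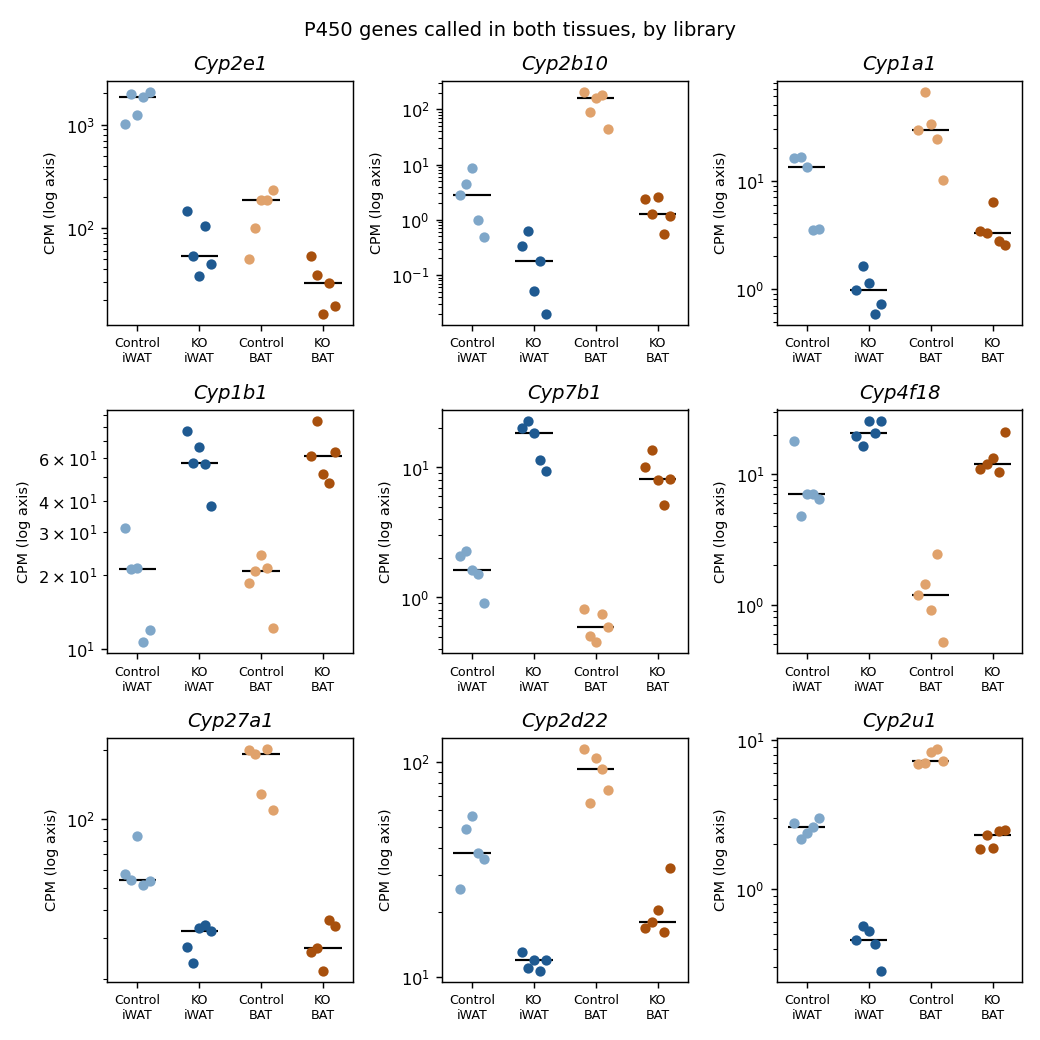
Points give the CPM of each library, on a log axis, and black lines the group median, for the 9 members called in both tissues; the 1 library at 0 (Cyp2b10, Ai-α4KO iWAT) is drawn at 0.02. Cyp1b1, Cyp7b1 and Cyp4f18 lie higher in the KO groups and the other members lower.

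Of the 30 members of family 4 and of the Cyp2j and Cyp2u groups, which act on fatty acids and eicosanoids, 10 were tested in iWAT and 11 in BAT. In iWAT 2 rose and 2 fell (median log2 fold change -0.51), and in BAT 1 rose and 3 fell (median -0.65), beside shares over all genes of 11.3% and 10.7% in iWAT and 18.2% and 13.3% in BAT. Cyp4f18, which inactivates leukotriene B4 in myeloid cells, was at 18, 4.82, 7.06, 7.0 and 6.48 CPM in Control iWAT, compared with 19.5, 16.3, 25.6, 20.5 and 25.7 CPM in Ai-α4KO iWAT. Control iWAT 1, a library high in B cell markers, lay within the Ai-α4KO range. The log2 fold change was 1.30 (SE 0.325, adjusted p = 0.0056) and 1.70 without that library (adjusted p = 3.47e-05). The call was lost without any one of Control iWAT 2, 3, 4 and 5 and Ai-α4KO iWAT 3, 4 and 5 (adjusted p up to 0.0164), and without the 2 Control libraries highest in hepatocyte markers (1.06, adjusted p = 0.0446) or the 2 iWAT libraries highest in muscle markers (1.26, adjusted p = 0.019). In BAT Cyp4f18 rose from 1.18, 1.45, 0.906, 2.47 and 0.517 CPM to 11, 12, 13.2, 10.3 and 20.9 CPM with no overlap (log2 fold change 3.32, SE 0.366, adjusted p = 9.18e-06). Of the neutrophil markers, 4 of 6 tested rose and 1 fell in iWAT (median 2.42), and 5 of 5 rose in BAT (median 3.86), as did the 7 tested macrophage markers in both tissues. The part of these cells in the rise of Cyp4f18 was not tested.

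Cyp4f16 rose in iWAT from 18.2, 17.7, 18, 14.1 and 11.7 CPM to 29, 36.6, 36.3, 30.3 and 32.4 CPM (log2 fold change 1.04, SE 0.14, adjusted p = 0.0001). The groups did not overlap, but the change was close to the 2-fold limit and fell below it when Control iWAT 4 or 5 was left out (to 0.999 and 0.95), or both (0.81). The call was also lost without the 2 Control iWAT libraries highest in B cell markers (0.98) and with upper-quartile scaling. Its value in BAT, 0.72 (SE 0.169, adjusted p = 0.00298), was below the limit. Cyp4f37, which shares 7.37% of its windows with Cyp4f16, was too low for the filter on low counts. It was at 0 to 4 counts in Control iWAT, against 7 to 23.7 in Ai-α4KO iWAT, and at 0 in all Control BAT libraries against 2.5 to 8 counts in Ai-α4KO BAT. Without the filter its log2 fold change in BAT was called (adjusted p = 0.00273). Some of these reads may belong to either gene.

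Cyp2u1, a hydroxylase of long-chain fatty acids (chromosome 3, 131290491 to 131303227, minus strand), was low but separated cleanly. It was at 2.79, 2.17, 2.40, 2.60 and 2.99 CPM in Control iWAT against 0.457, 0.570, 0.525, 0.430 and 0.285 CPM in Ai-α4KO iWAT (log2 fold change -2.51, SE 0.242, adjusted p = 1.17e-05). In limma on log2(FPKM + 1) the iWAT value was -0.75 and was not called. In BAT it was at 6.96 to 8.71 CPM against 1.87 to 2.49 CPM (log2 fold change -1.83, SE 0.169, adjusted p = 2.32e-06). Cyp4f13 fell in BAT, from 18.1 to 32.2 CPM in Control to 7.53 to 10.9 CPM in Ai-α4KO libraries (log2 fold change -1.54, SE 0.178, adjusted p = 1.32e-05), and its value in iWAT was -0.95 (adjusted p = 0.000611). The groups did not overlap in either tissue. Cyp4v3 likewise fell in BAT (-1.06, SE 0.147, adjusted p = 6.09e-05) and was at -0.78 in iWAT (adjusted p = 0.000776), again with no overlap. Its call in BAT was lost without Control BAT 5 or Ai-α4KO BAT 4.

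The epoxygenase Cyp2j9 fell in iWAT, where it was at 6.78, 13.7, 13.2, 14.1 and 14.6 CPM in Control and 4.71, 3.92, 5.51, 7.84 and 7.93 CPM in Ai-α4KO libraries (log2 fold change -1.07, SE 0.259, adjusted p = 0.00475). Control iWAT 1 lay within the Ai-α4KO range, and the call was lost without any one of Control iWAT 2, 4 and 5 and Ai-α4KO iWAT 1, 2 and 3 (adjusted p up to 0.0146). It was also lost without the 2 Control libraries highest in hepatocyte markers (-0.98, adjusted p = 0.0283) and without the 2 iWAT libraries highest in muscle markers (-0.94, adjusted p = 0.0215). Cyp2j6, the more abundant of the Cyp2j pair, was below 2-fold in both tissues (-0.52 in iWAT and -0.84 in BAT), as was Cyp4b1 (-0.50 and -0.60). When the counts of each subfamily were summed before the fit, so that reads shared among its members could not move between genes, Cyp1a, Cyp2b and Cyp2d fell in both tissues (iWAT -3.35, -3.09 and -1.81). In Control libraries each of these sums was mostly a single member already called, Cyp1a1, Cyp2b10 or Cyp2d22 (-3.40, -3.81 and -1.80 in iWAT). The sums thus largely repeat those results and show little about the other members. Cyp4f as a whole was at 0.38 in iWAT (adjusted p = 0.0125), while in BAT it was at 0.04 (adjusted p = 0.818). Cyp4a fell in BAT (-1.46, adjusted p = 0.00175), and its value in iWAT, -1.77 (adjusted p = 0.0108), narrowly missed the call. Within Cyp4a, the fatty acid hydroxylase Cyp4a10 was below the filter for loss of α4 in either tissue. It was at 8 to 22 counts in Control BAT and 3 to 6 counts in Ai-α4KO BAT, and was called there without the filter (-1.88, adjusted p = 0.00315). In iWAT it was at 2 to 24 counts in Control and 0 to 4 counts in Ai-α4KO libraries, ranges that overlapped.

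Of the 7 members that act on sterols, bile acids and oxysterols, 4 were tested in each tissue, and in both tissues 1 rose and 1 fell, beside shares over all genes of 11.3% and 10.7% in iWAT and 18.2% and 13.3% in BAT. Cyp7b1, which hydroxylates oxysterols (chromosome 3, 18071950 to 18243338, minus strand), showed the largest rise among the tested members in both tissues. It was at 2.08, 2.27, 1.61, 1.5 and 0.908 CPM in Control iWAT, compared with 20.2, 22.9, 18.3, 11.4 and 9.44 CPM in Ai-α4KO iWAT. The BAT libraries held 0.819, 0.508, 0.453, 0.741 and 0.597 CPM in Control and 10.1, 13.7, 8.04, 5.12 and 8.12 CPM in Ai-α4KO libraries. No library crossed over in either tissue, and the log2 fold changes were 3.29 (SE 0.321, adjusted p = 1.28e-05) and 3.81 (SE 0.298, adjusted p = 6.14e-07). Of 25 listed genes of steroid and oxysterol handling, 1 of 20 tested rose and 5 fell in iWAT, and 4 of 19 rose and 4 fell in BAT (medians -0.12 and -0.16). Ch25h, which makes an oxysterol that Cyp7b1 acts on, rose in both (2.67 in iWAT at an adjusted p of 0.0019, 3.54 in BAT at 8.25e-07), and Gpr183, an oxysterol receptor, rose in BAT (2.64, adjusted p = 3.17e-05).

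Cyp27a1, the mitochondrial sterol hydroxylase (chromosome 1, 74713574 to 74737890, plus strand), fell in both tissues and by different amounts. Control iWAT libraries held 57.4, 54.3, 84.5, 51.3 and 53.3 CPM, and Ai-α4KO iWAT libraries 27.6, 23.4, 33.3, 34.5 and 32.2 CPM (log2 fold change -1.0, SE 0.158, adjusted p = 0.000303). In BAT it was at 202, 193, 129, 203 and 109 CPM in Control and 26.2, 27.1, 21.7, 36.2 and 34 CPM in Ai-α4KO libraries (log2 fold change -2.56, SE 0.207, adjusted p = 7.91e-07). No library crossed over, and the Ai-α4KO levels of both tissues covered nearly the same range. The iWAT value sat at the 2-fold limit and was not called when Control iWAT 3, Ai-α4KO iWAT 1 or Ai-α4KO iWAT 2 was left out (-0.90 without Control iWAT 3). The iWAT call was also lost without normalization factors, without the filter on low counts and with a replicate block. It was lost as well in limma on log2(FPKM + 1) and in one fit of the 20 libraries. Cyp51, the demethylase of sterol synthesis, was at 29.1, 43.6, 58.2, 116 and 120 CPM in Control iWAT, a wide spread with Control iWAT 4 and 5 highest, and at 64.7 to 100.2 CPM in Ai-α4KO iWAT (log2 fold change 0.02, SE 0.35, adjusted p = 0.967). In BAT its groups did not overlap, but the log2 fold change of 0.64 (adjusted p = 0.000541) was below 2-fold. Of the 12 other sterol synthesis genes listed, 0 rose, 3 fell in iWAT and 1 in BAT (medians -0.35 and -0.36), Lss, the lanosterol synthase, in both (-1.34 and -1.74).

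The remaining roles, including the little studied Cyp20a1 (0.45 in iWAT, 0.28 in BAT), held few tested members and no call for loss of α4. Cyp26b1, which clears retinoic acid, was at -0.10 in iWAT (adjusted p = 0.775), while in BAT it was at 0.48 (adjusted p = 0.294), and the vitamin D enzyme Cyp2r1 at 0.21 (adjusted p = 0.477) and 0.74 (adjusted p = 0.0209). Cyp11a1, the first enzyme of steroid hormone synthesis, was tested in iWAT only (0.58, adjusted p = 0.227). In the retinoid and vitamin D list of 19 genes, 3 of 15 tested rose and 2 fell in iWAT, and 5 of 14 rose and 2 fell in BAT (medians 0.01 and -0.07). Aldh1a2, which makes retinoic acid, rose by 3.57 in iWAT and 3.94 in BAT, and Vdr, the vitamin D receptor, by 3.75 and 1.48.

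The proteins that serve P450 enzymes were also counted. The counts of these lists, and those of the retinoid, steroid and sterol lists, stand beside shares over all genes of 11.3% higher and 10.7% lower in iWAT and 18.2% and 13.3% in BAT, and with so few genes nothing is read from them about a list as a whole. Of 11 electron donor genes tested, 0 rose in either tissue, 2 fell in iWAT and 1 in BAT (medians -0.30 and -0.59). Por was at 273 to 466 CPM in Control iWAT against 60.4 to 114 CPM in Ai-α4KO iWAT (log2 fold change -2.0, SE 0.232, adjusted p = 3.69e-05) and at 222 to 399 against 64.9 to 121 CPM in BAT (-1.69, SE 0.197, adjusted p = 1.47e-05). Of the 13 genes of heme synthesis and breakdown, 1 rose and 2 fell in iWAT and 1 rose and 4 fell in BAT (medians -0.65 in each). The synthesis enzyme Alad fell in both tissues (-1.64 in iWAT, -1.44 in BAT), and Hmox1, which breaks heme down, rose (2.17 and 3.80). Among 14 tested receptors for foreign compounds and fatty acids, 2 rose and 3 fell in iWAT and 1 rose and 3 fell in BAT (medians -0.39 and -0.37), with Ppara falling in both (-2.77 and -2.55). Of the 6 epoxide hydrolases and prostanoid P450s that are not named Cyp, 1 rose and 1 fell in iWAT and 2 rose in BAT (medians 0.54 and 0.41). Tbxas1 (thromboxane synthase) rose in both tissues, by 2.01 and 3.47, Ephx4 rose in BAT, and Ephx2 fell in iWAT (-1.14).

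Among Control libraries, BAT was compared with iWAT. Of 28 members tested, 5 were higher in BAT (17.9%, against 7.22% of all genes) and 7 lower (25.0%, against 14.7%), with a median log2 fold change of -0.37 beside -0.01 for all genes. The calls of Cyp26b1 and Cyp4a14 were lost in some fits without 1 library (Control iWAT 1, 2 or 3 or Control BAT 1, 3 or 5 for Cyp26b1, Control iWAT 3 or Control BAT 1 or 2 for Cyp4a14), and that of Cyp2d22 without Control iWAT 1. Higher in BAT were Cyp2b10 (5.29, SE 0.739, adjusted p = 0.000146), Cyp4a14 (1.89), Cyp2u1 (1.53), Cyp27a1 (1.44) and Cyp2d22 (1.12). Lower in BAT were Cyp2f2 (-5.03, SE 0.562, adjusted p = 3.53e-05), Cyp2e1 (-3.46, SE 0.402, adjusted p = 4.35e-05), Cyp4f18 (-2.76), Cyp2ab1 (-2.49), Cyp26b1 (-1.57), Cyp7b1 (-1.45) and Cyp2j9 (-1.07). Cyp2b10 was at 44.3 to 204 CPM in Control BAT against 0.498 to 8.67 CPM in Control iWAT, and Cyp2e1 at 50.3 to 231 CPM against 1008 to 2058 CPM. Macrophage markers were also lower in Control BAT (219 to 491 CPM) than in Control iWAT (1090 to 1838 CPM). So, among others, were adipocyte markers (23670 to 26228 against 31083 to 42582 CPM) and fibroblast and progenitor markers (617 to 1022 against 1327 to 2558 CPM). Brown adipocyte and endothelial markers were higher in Control BAT. The part of any cell type in the differences between Control tissues was not tested.

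Whether loss of α4 acted differently in the 2 tissues was tested as an interaction over all 20 libraries. Of 30 members tested, 1 passed an adjusted p of 0.01 (3.33%, against 4.86% of all genes). This was Cyp27a1, which fell further in BAT by 1.53 on the log2 scale (SE 0.27, adjusted p = 0.00138). Cyp2e1 (2.08, SE 0.622, adjusted p = 0.0307), Cyp4f18 (2.05, SE 0.504, adjusted p = 0.0118) and Cyp2f2 (2.33, SE 0.735, adjusted p = 0.0387) did not pass, and neither did Cyp2b10 (-2.65, SE 1.07, adjusted p = 0.0987). In limma on log2(FPKM + 1), however, Cyp2b10 passed (-3.82, adjusted p = 0.000273), and by DESeq2 Cyp2f2 (2.40, adjusted p = 0.00547), Cyp2e1 (adjusted p = 0.00881) and Cyp4f18 (adjusted p = 0.000372) passed. For the other members called in one tissue only, the adjusted p of the interaction in edgeR was 0.347 for Cyp2j9, 0.38 for Cyp4f16, 0.12 for Cyp4f13 and 0.42 for Cyp4v3.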

How the data were processed

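RNA from 20 libraries (5 per tissue and genotype) was analysed from the table that the authors deposited. For each gene and library it holds an expected count, an estimated number of reads without normalization (77.3% of the nonzero counts were whole within 0.001), and an FPKM value, which the authors deposited as the count per transcript width and library total. The submitters' processing notes name bcl2fastq 2, STAR 2.5.3a and build mm10. The counting tool and annotation are not given in the sources used here. The kit was stranded, with paired reads of 150 bp.

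After rounding, the counts entered edgeR 4.0.16 under R 4.3.3 (filterByExpr, TMM, glmQLFit and glmQLFTest) over all genes of the table, within each tissue, between Control tissues, and over 20 libraries for the interaction. Calls needed an adjusted p below 0.01 and, except in the interaction, a 2-fold change. CPM used TMM over the 20 libraries. The same steps were tested on simulated data. A detection floor of 3 counts per library was used, which covers counting error only.

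The members and gene lists were chosen with earlier results of these data known. Named genes were Igbp1, members called in either tissue or in the interaction, the 10 highest by median FPKM in each group, and listed genes where a result turned on them. Members named outside this rule, among them Cyp3a11, Cyp2c29, Cyp4f37, Cyp4a10, Cyp26b1, Cyp2r1, Cyp11a1 and those called only between Control tissues, were chosen after their values were seen. Shared windows of 100 bases and coding sequences used GENCODE M21, and promoters RefSeq GRCm38.p6, both of the same build as mm10. The positions of 103 members were found in the RefSeq table, all on the same chromosome and 58 with the same start. Alternatives were DESeq2 1.42.0, limma 3.58.1 on log2(FPKM + 1), library sizes without normalization factors, upper-quartile scaling, other filters, an adjusted p below 0.05, one fit of all libraries, a replicate block and leaving out each library. Log-scale values of libraries of one group correlated at r = 0.977 to 0.997 across genes, and no 2 libraries were identical.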

Additional observations from a re-analysis of the deposited data

Results flagged for a closer look

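A library was called apart from its group when its gap to the nearest other library exceeded 0.71 of the range of the 5. This was so in 13 of 72 groups checked, and chance flags about 1 in 20. In Control iWAT 1, Cyp2j6 (31.6 CPM, next 52.0) and Cyp2j9 (6.78 CPM, next 13.2) were low and Cyp4f18 (18 CPM, next 7.06) was high. In Control iWAT 3, Cyp27a1 (84.5 CPM, next 57.4) and Cyp4f13 (30.8 CPM, next 19.95) were high. In Ai-α4KO iWAT, Cyp2j6 was low in library 1 (28.9 CPM, next 36.2) and Cyp51 high in library 2 (100.2 CPM, next 70.7). In Control BAT, Cyp2j9 was low in library 1 (5.14 CPM, next 6.21) and Cyp4f13 in library 2 (18.1 CPM, next 30.1). In Ai-α4KO BAT, library 3 was high in Cyp1a1 (6.31 CPM, next 3.41) and low in Cyp4f13 (7.53 CPM, next 10.5), and library 5 was high in Cyp2d22 (32.1 CPM, next 20.4) and Cyp4f18 (20.9 CPM, next 13.2).

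The genotype effect on Cyp27a1 differed between tissues by -1.53 on the log2 scale (BAT minus iWAT, adjusted p = 0.00138 in edgeR's quasi-likelihood test), the 1 difference of this kind among the members.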

How the results depend on the processing

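No called effect changed sign in the alternatives run, but 49 values of effects that were not called changed sign. Of the other single-gene values, 1562 kept their side of the threshold, 56 lost it and 23 gained it. On the log2(FPKM + 1) scale, limma called 4 members lower in iWAT where edgeR called 8, and between Control tissues 2 higher and 3 lower where edgeR called 5 and 7. The pseudocount shrinks low genes by construction. Calls were also lost by limma for Cyp27a1 in iWAT and for Cyp2d22 between Control tissues. Both genes were among the 10 highest members by median FPKM in each group compared. Why limma lost these calls was not tested. For the interaction, where 1 member was called, 4 were called at an adjusted p below 0.05, 4 by DESeq2 (Cyp2e1, Cyp2f2 and Cyp4f18 beside Cyp27a1), and 2 each by limma (Cyp2b10 beside Cyp27a1), with upper-quartile scaling and with at least 10 counts in every library, and the cause was not tested. Subfamilies with a called member numbered 5 in iWAT when counted by single genes, against 3 called by sums.

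Leaving out single libraries gave 2 to 4 members higher and 6 to 9 lower in iWAT, 3 to 4 and 7 to 10 in BAT, 4 to 5 and 6 to 7 between Control tissues, 1 to 2 for the interaction, and 2 to 4 subfamilies in iWAT and 4 to 5 in BAT. The interaction gave 2 without Control iWAT 2, Ai-α4KO iWAT 1 or 4, Control BAT 4 or Ai-α4KO BAT 1. The iWAT count of 2 higher came without Control iWAT 4 and without Control iWAT 5. Without both, which are the Control libraries highest in hepatocyte markers, 2 members were higher in iWAT and 3 higher in Control BAT than Control iWAT. This alternative, and those without the libraries highest in B cell or muscle markers, were chosen after seeing the data. The correlations of equally numbered libraries ran from -0.29 to 0.36 and were not above 0.1 in every pair, so the numbers were not used to pair libraries, though this does not show that no tissues came from one mouse. With a replicate block 4 members were higher and 7 lower in iWAT, 3 and 8 in BAT, 6 and 6 between Control tissues, and 1 was called for the interaction.

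The changed signs were near 0 on the log2 scale or in the interaction. Cyp51 in iWAT (0.02) was at -0.071 with upper-quartile scaling, -0.070 without the 2 Control iWAT libraries highest in B cell markers and -0.015 in DESeq2. Cyp2f2 in BAT (-0.12) was at 0.16 without normalization factors and 0.072 in limma. Cyp1b1 between Control tissues (-0.03) was at 0.011 without the filter, 0.012 in one fit of 20 libraries, 0.050 with the replicate block and 0.075 without the B cell libraries. In the interaction limma gave -0.48 for Cyp1a1, -0.18 for Cyp2u1, -0.34 for Cyp7b1 and 0.018 for Cyp4b1. There Cyp20a1 (-0.14) was at 0.0032 with at least 10 counts in every library and 0.060 without the B cell libraries, and Cyp51 (0.65) at -0.10 without the hepatocyte libraries. Cyp4b1 (-0.07) was at 0.045 without normalization factors, 0.020 with upper-quartile scaling, 0.069 with at least 10 counts, and 0.061, 0.12 and 0.14 without the B cell, hepatocyte and muscle libraries.

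Leaving out single libraries, the values that changed sign ranged from -0.24 to 0.27 for Cyp51 in iWAT, from -0.35 to 0.21 for Cyp2f2 in BAT, from -0.18 to 0.22 for Cyp1b1 between Control tissues, from -0.084 to 0.27 for the interaction of Cyp1b1, from -0.23 to 0.042 for Cyp20a1, and from -0.18 to 0.10 for Cyp4b1.

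Of the 76 members not tested for loss of α4 in either tissue, 19 were at 0 in every library and 12 more never exceeded 3 counts, so changes in these could not be seen at this depth. Without the filter, 2 of them, Cyp4f37 and Cyp4a10, were called in BAT.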
